A study of Mus musculus with 4 samples.

Results

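Nucleotide excision repair (NER) and translesion polymerase genes were followed in mouse embryonic fibroblasts (MEFs) with and without p53, before and after treatment with doxorubicin. The 10 genes are *Xpc*, *Ddb1*, *Ddb2*, *Xpa*, *Ercc1*, *Ercc5*, *Polk*, *Polh*, *Poli* and *Rev3l*. They were chosen by name for their roles and not by a rule on their values, though earlier results of these data were known. All spots that are not controls and carry one of these names were taken. The 10 genes were read by 12 of the 39429 probes of the array, which carries 31829 gene names. *Xpa* and *Polk* had 2 probes each, and each other gene had 1.

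The study measured total RNA from p53+/+ (wild-type, WT) and p53-/- MEFs, each cultured without or with doxorubicin, on one-color Agilent mouse arrays. This gave 4 conditions of 1 array each, WT and p53-/- without the drug and both genotypes with it, on a single slide. No difference below has a replicate behind it, no p-value was calculated, and position on the slide and condition cannot be told apart. The labels give neither the dose nor the time of doxorubicin for the arrays, nor an age of the embryos, and how many embryos or clones the MEFs came from is not given in the sources used here. The MEFs carry no other allele in the labels.

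NER cuts out lesions that distort the DNA helix. XPC and the DDB1-DDB2 complex find the lesion, TFIIH opens the strands, XPA checks the damage, and the nucleases ERCC1-XPF and XPG (the product of *Ercc5*) cut the damaged strand on either side before polymerases fill the gap. Translesion polymerases instead copy past a lesion that blocks the replication fork. Doxorubicin intercalates into DNA and traps topoisomerase II on it, and p53 is the transcription factor that many DNA-damage responses run through. Human *DDB2* and *XPC* are known target genes of p53.

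The probes behind the genes that differed most are shown so that each value can be traced to the transcript segment it reads. Each probe is a 60-base oligonucleotide, written 5′ to 3′ in lower case as the scanner files list it, and each was placed on the mm9 build by those files. Exon and UTR annotation of that build was not used here. The *Ercc5* probe lies at chr1:44237384-44237443 on the plus strand and the *Ercc1* probe at chr7:19935530-19935589 on the plus strand. The *Polk* probes lie on the minus strand at chr13:97251653-97251712 (probe 1, the brighter one) and chr13:97256835-97256894 (probe 2). The *Xpa* probes lie on the minus strand at chr4:46188146-46188205 (probe 1, the brighter one) and chr4:46197239-46197298 (probe 2). Of the *Ddb2* probe, at chr2:91052013-91052072 on the minus strand, the first 30 bases are given.
Ercc5: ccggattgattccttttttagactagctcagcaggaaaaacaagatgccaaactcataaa
Ercc1: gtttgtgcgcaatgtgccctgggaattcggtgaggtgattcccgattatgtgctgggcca
Polk probe 1: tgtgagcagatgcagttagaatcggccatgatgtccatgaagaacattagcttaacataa
Polk probe 2: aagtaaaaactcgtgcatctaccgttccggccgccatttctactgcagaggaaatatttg
Xpa probe 1: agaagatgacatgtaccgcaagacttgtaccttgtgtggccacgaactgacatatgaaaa
Xpa probe 2: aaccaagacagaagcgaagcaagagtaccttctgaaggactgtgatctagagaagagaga
Ddb2: agatgggaacacattctgtgaggagtggca

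All values below are spot intensities divided by the 75th percentile of their array, which lay between 1819 and 2421 on the 4 arrays. A value of 1 is thus a signal equal to that percentile, and signals of different probes are not comparable as levels. An error is the one that the error model of the scanner software gave for the spot, carried to the ratio. It covers the measurement of a spot, not the difference between cultures, and was between 0.20 and 0.23 for a log2 ratio of the 10 genes' brighter or only probes. The only other spread in the files is that of 264 probes spotted a median of 10 times on each array. Their log2 signals had a pooled SD of 0.11 within an array, from which an SD of 0.16 for a log2 ratio was derived. All 12 probes were called well above background on all 4 arrays, and 11 of them were also above the brightest negative control spot of each array.

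*Trp53*, the gene that was targeted, was read by 1 probe at 0.592 without and 1.89 with doxorubicin in WT MEFs, and at 0.235 without and 0.224 with doxorubicin in p53-/- MEFs. Both p53-/- arrays were thus below both WT arrays. Which exons the p53-/- allele lacks is not given in the sources used here, so this probe cannot settle the genotype. All 12 fibroblast markers were well above background on all 4 arrays. Their summed values ran from 599 to 928, with *Col1a2* the largest part on each array. In WT MEFs the unscaled signals of *Lum* (18970 to 595), *Pdgfra* (2728 to 233) and *Pdgfrb* (33756 to 5450) fell with doxorubicin. Only *Col1a1* and *Thy1* of the 12 had higher unscaled signals there with the drug. Of 9 leukocyte markers 5 to 7 were called, with summed values from 14.7 to 20.0 that were mostly *Itgam*. *Itgam*, *Csf1r*, *Cd3e* and *Emr1* were above the brightest negative control spot on every array, and *Ptprc* was below it on every array. Of 6 epithelial markers 3 or 4 were called, and their sum, mostly *Krt18*, was 4.95 and 9.93 in untreated and treated WT and 4.60 and 17.0 in untreated and treated p53-/- MEFs, while *Epcam* was below the brightest negative control spot on every array. *Krt14* was called on all 4 arrays, with unscaled signals from 179 to 822, and *Krt5* on the treated WT array alone, at 951. The 179 of *Krt14*, in untreated p53-/- MEFs, was below the 250.1 of that array's brightest negative control spot. Of 5 endothelial markers 2 or 3 were called, with summed values from 2.34 to 4.22 that were mostly *Kdr*, and *Cdh5* was below the brightest negative control spot on every array. The part of these markers in the values below was not tested, and in RNA of a whole culture fewer cells of a type and less RNA per cell cannot be told apart.

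With doxorubicin, the incision genes *Ercc5* and *Ercc1* and the polymerase gene *Polk* were at least 2-fold higher in WT MEFs, where 11.0% of all measured genes were, and *Ddb2* was at least 2-fold lower, where 10.4% were. At 2-fold, the calls of *Polk* and *Ddb2* were lost under 1 other setting each, and at 3-fold *Ercc5* alone stayed called. In p53-/- MEFs none of the 10 genes was 2-fold higher and *Xpa* alone was at least 2-fold lower, where 9.26% and 6.89% of all measured genes were, so these counts are near the share over the array. *Ercc5* (above) and *Ddb2* (below) alone had log2 ratios that differed at least 2-fold between the genotypes (WT minus p53-/-). Of all measured genes 8.39% were above and 9.87% below, so these counts too are near the share over the array. *Ercc5* was 3.15-fold higher with doxorubicin in WT and 1.01-fold in p53-/- MEFs. *Ddb2* had the opposite order, with less signal in treated than untreated WT MEFs and more in treated than untreated p53-/- MEFs. The p53-/- part of this was small, at 1.86 errors.

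**Figure D1:**
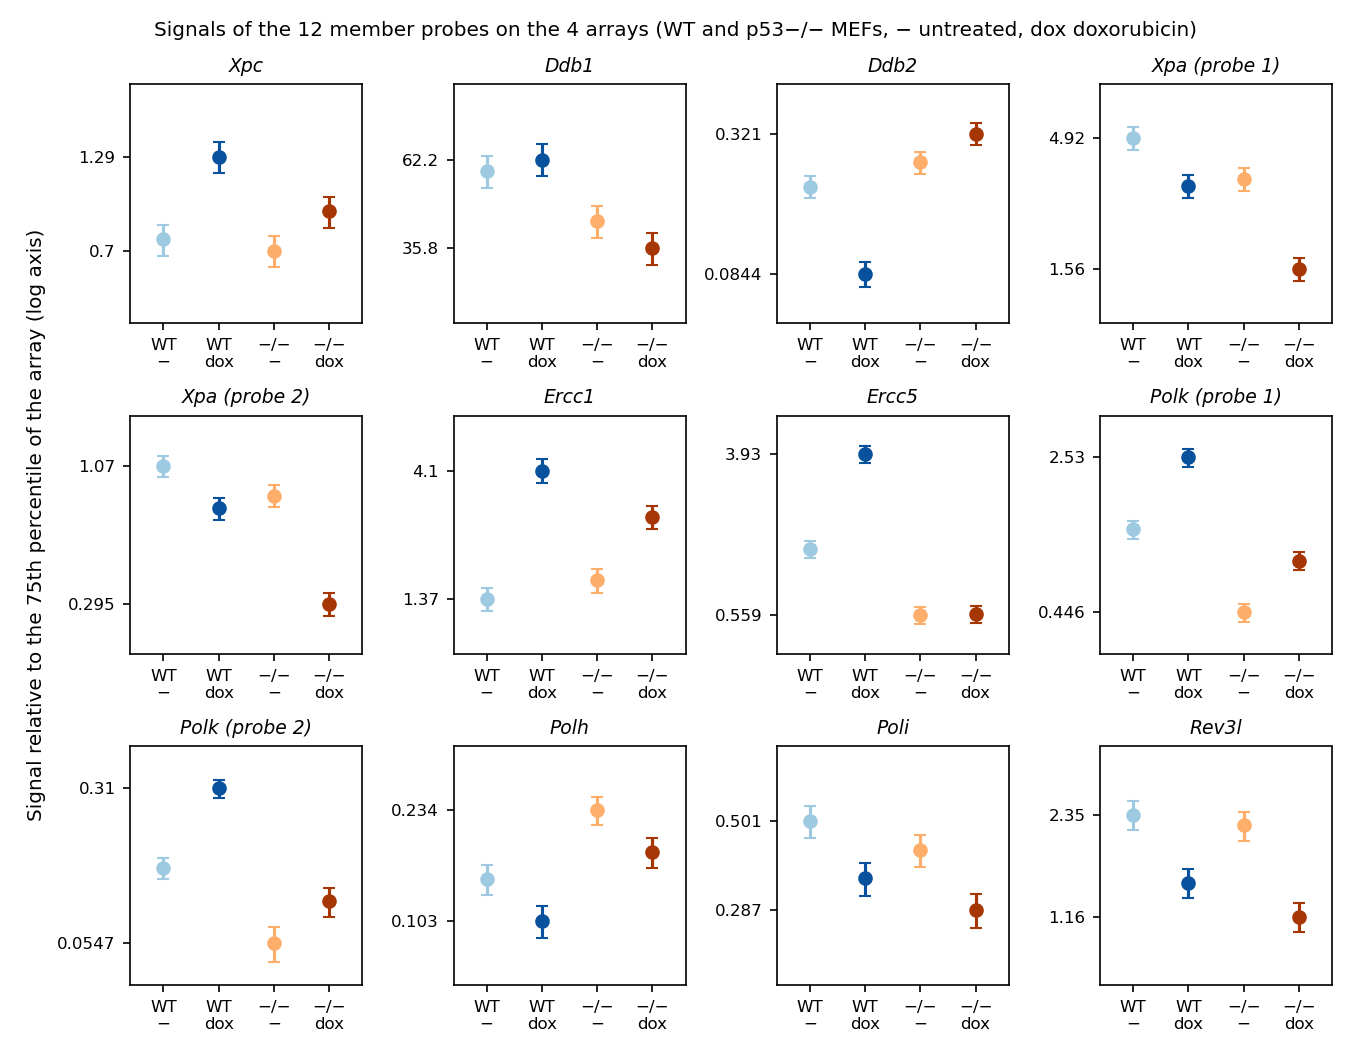
Signals of the 12 probes of the 10 genes on the 4 arrays, 1 panel per probe. Each point is 1 array, WT MEFs first and p53-/- MEFs second, each without (-) and then with doxorubicin (dox), with the signal relative to the 75th percentile of the array on a log axis (the labeled ticks are the lowest and highest value), and bars are the deposited error of the spot. Within their own panels *Ercc5* (3.93) and *Ercc1* (4.10) are highest in WT MEFs with doxorubicin, and both *Xpa* probes are lowest in doxorubicin-treated p53-/- MEFs.

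Among the genes that recognize damage, *Xpc* (probe at chr6:91439856-91439915, minus strand) was 0.755 in untreated WT, 1.29 in treated WT, 0.700 in untreated p53-/- and 0.906 in treated p53-/- MEFs. XPC binds the distorted strand opposite a lesion and starts the genome-wide branch of NER. Both treated arrays were above both untreated arrays, and the log2 ratio was 0.78 ± 0.20 for WT and 0.37 ± 0.20 for p53-/- MEFs. Subtracting the p53-/- ratio from the WT ratio gave 0.41 ± 0.29, which was below 2 errors.

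*Ddb1* (probe at chr19:10704247-10704306, plus strand) was 57.8, 62.2, 42.3 and 35.8 in the same order of conditions. DDB1 is the adaptor that ties DDB2 to a CUL4 ubiquitin ligase. Its 2 WT arrays were above its 2 p53-/- arrays, and treatment moved it little, with a log2 ratio of 0.10 ± 0.20 for WT and -0.24 ± 0.20 for p53-/- MEFs. The p53-/- over WT log2 ratio was -0.45 ± 0.20 without and -0.80 ± 0.20 with doxorubicin.

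*Ddb2*, the subunit that flips damaged bases out of the helix, was 0.194 in untreated WT and 0.0844 in treated WT MEFs. In p53-/- MEFs it was 0.245 untreated and 0.321 treated. The treated WT array was the lowest of the 4 and the treated p53-/- array the highest. In WT MEFs the signal was 2.30-fold lower with doxorubicin (log2 ratio -1.20 ± 0.23), and in p53-/- MEFs it was 1.31-fold higher (0.39 ± 0.21). The difference of the log2 ratios was -1.59 ± 0.31, which is 5.11 errors. *Ddb2* is dim on this array, with unscaled signals of 402, 153, 460 and 777, and with another background correction (normexp) the WT log2 ratio was -0.87, which is below 2-fold.

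*Xpa*, whose product binds the opened DNA and holds the incision complex in place, was 4.92, 3.23, 3.44 and 1.56 by its brighter probe. Its dimmer probe read 1.07, 0.718, 0.809 and 0.295. Both probes were highest in untreated WT and lowest in treated p53-/- MEFs. The log2 ratio with doxorubicin was -0.61 ± 0.20 in WT and -1.15 ± 0.20 in p53-/- MEFs by the brighter probe. By the dimmer probe these ratios were -0.57 ± 0.20 and -1.45 ± 0.21. The difference of the ratios was 0.54 ± 0.29 (1.86 errors) by the brighter and 0.88 ± 0.29 (2.99 errors) by the dimmer probe. The probes gave the same direction, and these values overlap within their errors.

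The incision genes had the highest log2 ratios of the 10 genes in WT MEFs. *Ercc1*, the partner of the XPF nuclease that cuts on the 5′ side of the lesion, was 1.37 in untreated WT, 4.10 in treated WT, 1.61 in untreated p53-/- and 2.76 in treated p53-/- MEFs. Both treated arrays were above both untreated arrays, and the treated WT array was the highest. It was 2.99-fold higher with doxorubicin in WT (log2 ratio 1.58 ± 0.20) and 1.72-fold higher in p53-/- MEFs (0.78 ± 0.20). The difference of the log2 ratios was 0.80 ± 0.29, or 2.77 errors. Without doxorubicin the genotypes differed by a log2 ratio of 0.23 ± 0.20 (p53-/- over WT), about 1 error, and with it by -0.57 ± 0.20.

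*Ercc5*, the gene of the XPG nuclease that cuts on the 3′ side, was 1.25 in untreated WT and 3.93 in treated WT MEFs. In p53-/- MEFs it was 0.559 untreated and 0.566 treated. The p53-/- arrays differed from each other by less than their error and lay below both WT arrays. The log2 ratio with doxorubicin was 1.66 ± 0.20 in WT and 0.02 ± 0.21 in p53-/- MEFs. The difference of 1.64 ± 0.29 amounted to 5.64 errors and was the highest of the 10 genes. Its p53-/- signal was 2.23-fold below WT without doxorubicin and 6.94-fold below WT with it.

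**Figure D2:**
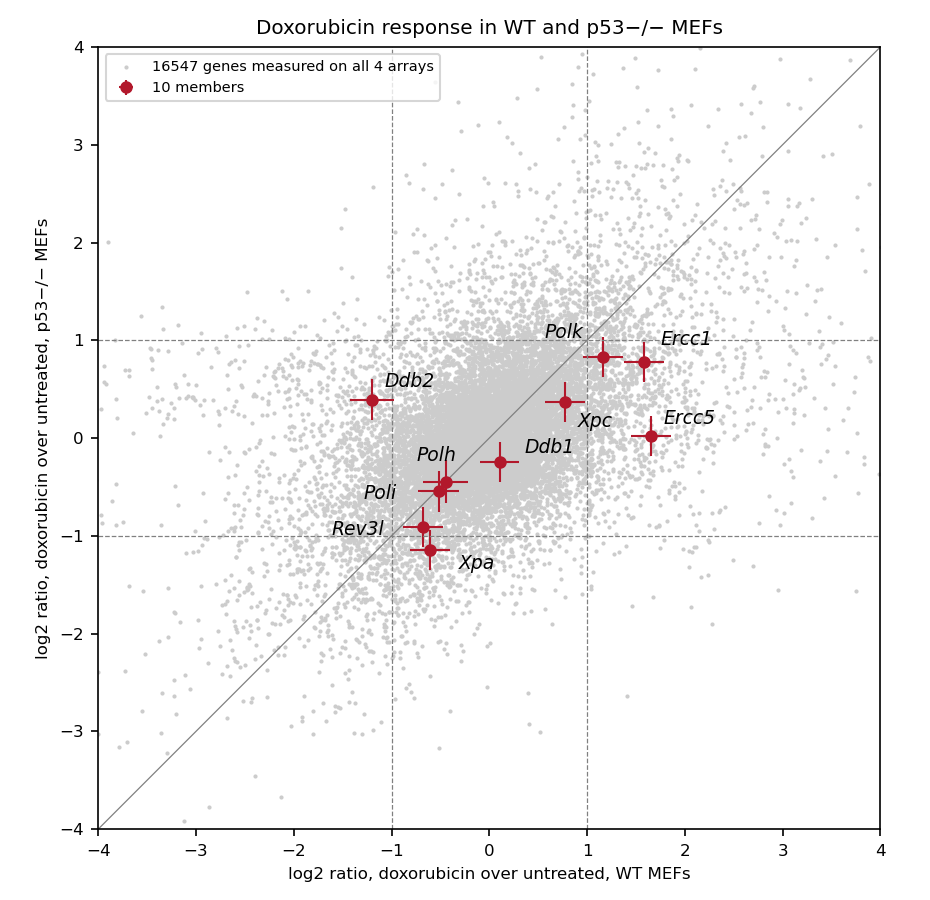
Log2 ratio of doxorubicin-treated over untreated MEFs in WT (horizontal) and p53-/- MEFs (vertical). Grey points are the 16547 genes measured on all 4 arrays, of which 90 lie outside the axes, red points are the 10 genes by their brighter or only probe with the error of the ratio, dashed lines mark 2-fold and the solid line equal ratios. *Ercc5* lies far to the right at a p53-/- ratio near 0, *Ddb2* lies on the left above 0, and *Polh* and *Poli* lie on the line of equal ratios.

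Of the translesion polymerases, *Polk*, *Polh* and *Poli* encode Y-family enzymes, and *Rev3l* encodes the catalytic subunit of polymerase zeta, which extends DNA past the lesion. *Polk* was the only one of these 4 with more signal after doxorubicin. Its brighter probe read 1.13 in untreated WT, 2.53 in treated WT, 0.446 in untreated p53-/- and 0.791 in treated p53-/- MEFs. Its dimmer probe read 0.128, 0.310, 0.0547 and 0.0874. By both probes the p53-/- arrays were below the WT arrays, and treatment was higher than no treatment within each genotype.

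By the brighter *Polk* probe, the log2 ratio with doxorubicin was 1.17 ± 0.20 in WT and 0.83 ± 0.21 in p53-/- MEFs, and the difference of 0.34 ± 0.29 was 1.16 errors. The p53-/- signal was 2.53-fold below WT without doxorubicin and 3.20-fold below WT with it. The dimmer probe gave log2 ratios of 1.28 ± 0.23 and 0.68 ± 0.36, and without doxorubicin its unscaled p53-/- signal of 103 did not reach the 250.1 of that array's brightest negative control spot. Scaled to the array median in place of the 75th percentile, the WT log2 ratio of the brighter probe was 0.89, which is below 2-fold.

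*Polh*, whose product copies past UV-induced thymine dimers, was 0.141, 0.103, 0.234 and 0.172 (probe at chr17:46309069-46309128, minus strand). It was lower after doxorubicin in both genotypes and higher in p53-/- than in WT MEFs under both conditions. The log2 ratio with doxorubicin was -0.45 ± 0.23 in WT and -0.45 ± 0.22 in p53-/- MEFs. The p53-/- over WT log2 ratio was 0.73 ± 0.22 without and 0.73 ± 0.23 with doxorubicin.

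*Poli*, the gene of polymerase iota, was 0.501, 0.350, 0.418 and 0.287, and was lower with doxorubicin by a similar amount in each genotype. They were -0.52 ± 0.21 (WT) and -0.54 ± 0.21 (p53-/-) as log2 ratios.

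*Rev3l* (probe at chr10:39594632-39594691, plus strand) was 2.35, 1.47, 2.18 and 1.16. Both treated arrays were below both untreated arrays. The log2 ratio with doxorubicin was -0.68 ± 0.20 in WT and -0.91 ± 0.20 in p53-/- MEFs, and the difference of 0.23 ± 0.29 was below 1 error. With array-median scaling the p53-/- ratio was -1.20, which is past 2-fold.

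The counts were read against all genes of the array. In WT MEFs 3 of the 10 genes were at least 2-fold higher with doxorubicin, where 11.0% of the 17563 measured genes were, and 1 of 10 was at least 2-fold lower, where 10.4% of all genes were. The median log2 ratio of the 10 genes was -0.17, beside 0.01 for all genes. Without p53, 0 of 10 were at least 2-fold higher with doxorubicin and 1 of 10 was lower, where 9.26% and 6.89% of 16988 genes were, and the medians were -0.11 for the 10 genes and 0.00 for all genes. With 10 genes, 1 gene more or less moves such a share a long way. At 2-fold the WT calls of *Ddb2* and *Polk* were lost under 1 setting each, and at 3-fold only that of *Ercc5* stayed. *Ercc5* and *Ercc1* had WT log2 ratios higher than those of 95.3% and 94.9% of all measured genes, *Polk* than those of 91.3% and *Ddb2* than those of 7.59%.

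Between the genotypes, 2 of 10 genes, *Ercc5* and *Polk*, were at least 2-fold lower in p53-/- than in WT MEFs without doxorubicin and 0 of 10 were higher, where 2.61% and 2.16% of 17329 genes were. With doxorubicin 3 of 10, *Ercc5*, *Polk* and *Xpa*, were lower and *Ddb2* was higher in p53-/- MEFs, where 10.3% and 11.9% of 17935 genes were. The median log2 ratio of the 10 genes was -0.19 without and -0.54 with doxorubicin, beside -0.00 and 0.00 for all genes. The untreated and treated arrays of the genotype comparisons are those of the doxorubicin comparisons, so these counts are not separate observations. For the difference of log2 ratios (WT minus p53-/-), *Ercc5* was above and *Ddb2* below by at least 2-fold, where 8.39% and 9.87% of 16547 genes were.

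**Figure D3:**
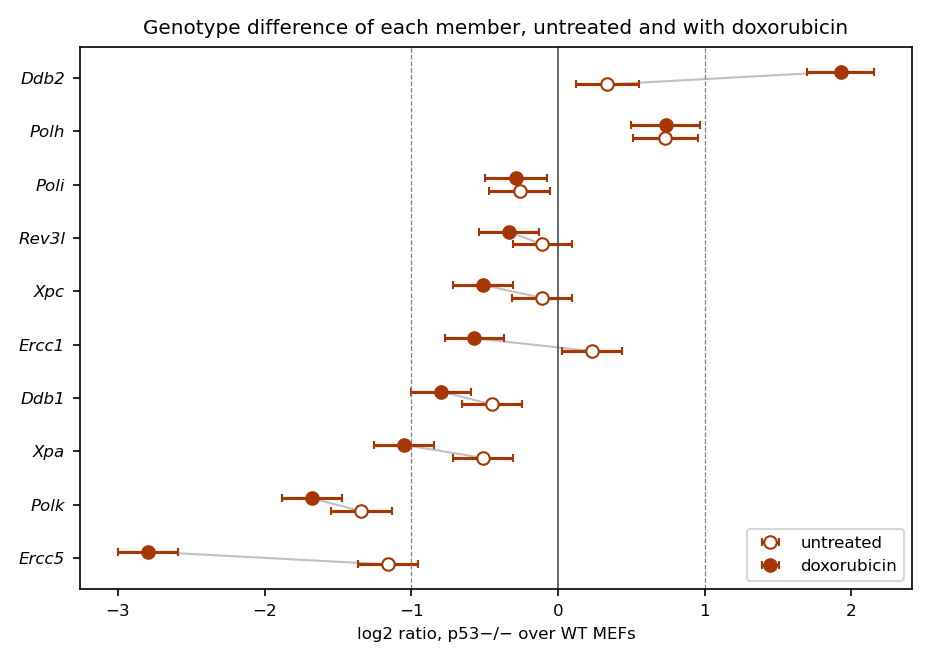
Genotype difference (log2 ratio, p53-/- over WT) of each of the 10 genes, without (open) and with doxorubicin (filled), ordered by the treated value. Bars are the error of the ratio from the error model, grey lines join the values of a gene, and dashed lines mark 2-fold. *Ercc5* and *Polk* lie beyond 2-fold on the left under both conditions, *Ddb2* passes 2-fold on the right with doxorubicin alone, and *Polh* and *Poli* barely move.

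The rest of the pathway was followed with 55 other genes of NER and translesion synthesis, all of which were on the array. In WT MEFs 4 of these 55 were at least 2-fold higher with doxorubicin, where 11.0% of all genes were, and 16 were lower, where 10.4% were. The median log2 ratio was -0.21. Among p53-/- arrays 6 of 52 measured genes were higher and 1 was lower, where 9.26% and 6.89% of all genes were, with a median of 0.35. Scaled to the array median, 1 gene was higher in WT and 0 in p53-/- MEFs. The genes that were low in treated WT MEFs were mostly those of the gap-filling step. Of its 17 genes, 10 were at least 2-fold lower and 2 higher in WT MEFs (median -1.31), and 0 were lower and 4 higher in p53-/- MEFs (median 0.53). Most of these 17 genes also serve DNA replication in dividing cells.

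By name, the lowest WT log2 ratios were those of *Pold2* (-2.71) and *Pold1* (-2.46), subunits of polymerase delta, *Pole2* (-2.61), a subunit of polymerase epsilon, and *Usp1* (-2.11), which removes ubiquitin from the sliding clamp. The highest were *Poln* (1.77), a translesion polymerase gene, *Xab2* (1.10), a transcription-coupled repair gene, *Pold4* (1.05) and the ligase partner *Xrcc1* (1.03). *Poln* was dim, with an unscaled signal of 84.6 in untreated WT MEFs against 108 for the brightest negative control spot there.

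In p53-/- MEFs the highest of the 52 measured were *Rfc3* (1.20), *Rfc5* (1.12), *Pole3* (1.11) and *Rpa2* (1.09). *Rfc3* and *Rfc5* are clamp loader genes, and *Rpa2* encodes a subunit of the single-strand binding protein RPA. *Poln* was not ranked here, because it was not well above background on the untreated p53-/- array. Its unscaled p53-/- signals were 63.1 untreated and 421 treated, so a rise without p53 is not excluded. The lowest were *Ercc6* (-1.51), the gene of the transcription-coupled repair factor CSB, *Ercc4* (-0.63), *Pold2* (-0.62) and *Rad23b* (-0.55), the gene of an XPC partner. *Ercc6* was dim, with unscaled signals of 299 untreated and 135 treated, against 250 and 120 for the brightest negative control spots of those arrays. None of the 10 TFIIH genes passed 2-fold in either genotype, and their log2 ratios ran from -0.36 to 0.46 in WT and from -0.38 to 0.69 in p53-/- MEFs. *Ercc4*, the gene of the XPF nuclease that pairs with ERCC1, had a log2 ratio of 0.11 in WT MEFs, where *Ercc1* had 1.58.

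**Figure D4:**
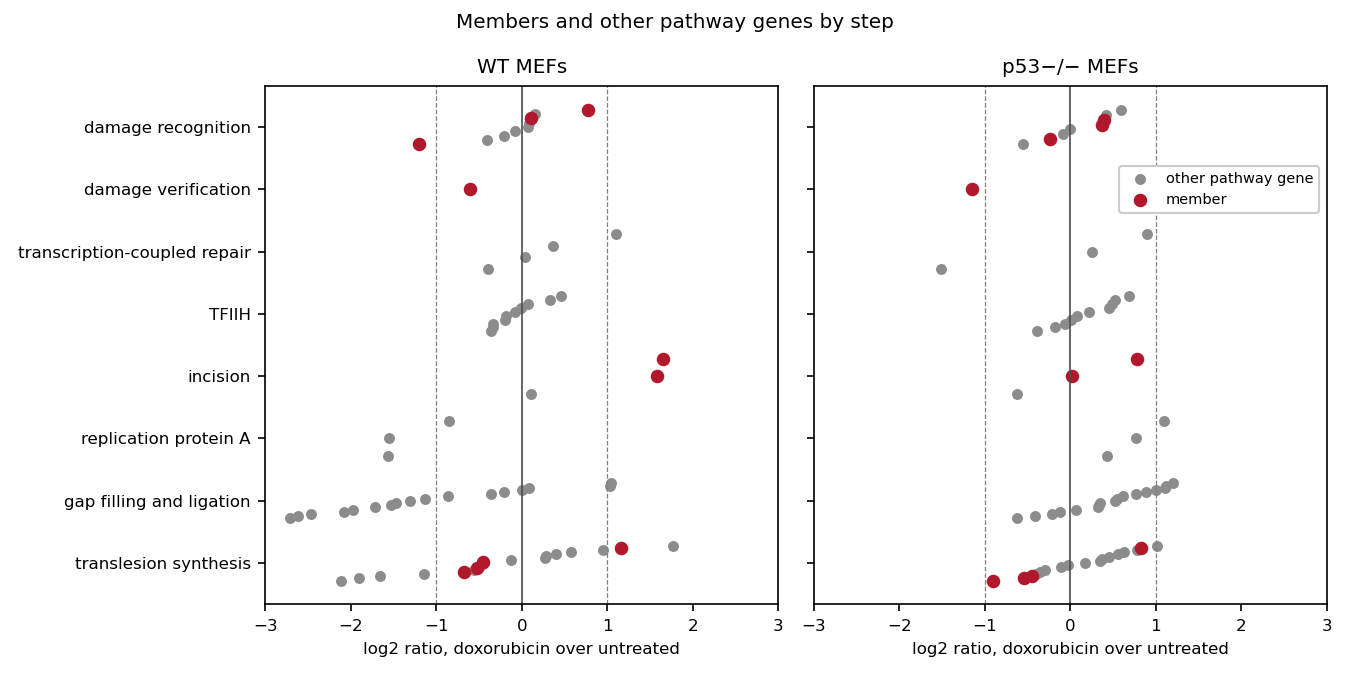
Log2 ratio of doxorubicin-treated over untreated MEFs for the 10 genes (red) and the other measured pathway genes (grey), by step of the pathway, in WT (left) and p53-/- MEFs (right). Each point is 1 gene, spread in height within its step for legibility, and dashed lines mark 2-fold. Gap-filling genes reach -2.71 in WT and stay above -1 in p53-/- MEFs, while the incision genes *Ercc5* and *Ercc1* are the highest of the 10 genes in WT.

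With doxorubicin, 22 of 53 measured pathway genes were at least 2-fold higher in p53-/- than in WT MEFs and 4 were lower, where 11.9% and 10.3% of all genes were. *Ercc4* was among the lower ones at a log2 ratio of -1.09. The median was 0.45, against -0.54 for the 10 genes. Without doxorubicin 2 of 53 were higher and 0 lower, where 2.16% and 2.61% of all genes were. For the difference of log2 ratios 2 of 52 genes were above and 21 below by at least 2-fold, where 8.39% and 9.87% of all genes were, with a median of -0.41 against 0.34 for the 10 genes and 0.01 for all genes. 14 of these 21 were gap-filling genes. Genes that moved at least 1.5-fold in opposite directions in the genotypes numbered 0 of the 10 and 6 of 52 other pathway genes, and 1.04% of all genes were up in WT and down in p53-/- MEFs and 1.85% the reverse.

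Genes of the array with the most similar pattern were found by the Euclidean distance between log2 signals of the 4 arrays, each gene centred on its own mean. Nearest to *Ercc5* among 16546 other genes were *Tmem88* (0.0998), *Sgsm2* (0.140) and *Pcsk6* (0.152). Of the other 9 genes *Polk* was the nearest to *Ercc5*, at a distance of 0.816, and 160 genes of the array lay nearer. Nearest to *Ddb2* were *Ttf2* (0.0686), the transcript listed as ENSMUST00000107373 (0.0937) and *Rgs2* (0.103). *Ercc5* and *Ddb2* lay 3.72 apart. With 4 arrays such likeness is a description of these samples and nothing is said of shared control.

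Promoter windows (250 bases before to 50 after a start site, RefSeq, GRCm38.p6) were given for *Ddb1*, *Xpa*, *Ercc1*, *Ercc5*, *Polk* and *Polh*, 7 windows in all. They were searched for the p53 half-site consensus, a palindrome that reads alike on both strands. It was found in 1 of the 7 windows, that of a *Polk* start site, and in 8.36% of all 32851 windows. The match is shown in capitals with its flanks at chr13:96519399-96519428 (GRCm38.p6, minus strand), 231 bases before the start site.
Polk promoter: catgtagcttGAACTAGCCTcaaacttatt
The match is a description of these letters and not a site of binding.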

How the data were processed

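The 10 genes, the pathway and marker lists and the alternatives were chosen with earlier results of these data known. Total RNA (200 ng each) was Cy3-labeled by the authors, and spots were quantified in Agilent Feature Extraction 10.7.3.1. That program subtracted background and removed trends within an array, and the deposited intensity values were not normalized between arrays. The deposited value table equaled these intensities, within a relative tolerance of 1e-06, at all 44397 spots of each array. The deposited flags (0 or 1, other values) mark spots that are outliers or well above background. The mean spot and local background intensities deposited by the authors served 1 alternative.

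Here, outlier spots were left out, repeat spots were averaged on the log2 scale, and each array was scaled to its 75th percentile. A gene was its GeneName, by the probe with the highest mean, and was measured where well above background on the arrays compared. The rule for named genes took all 10 genes, *Trp53*, the 4 highest and 4 lowest other pathway genes in each genotype, and the 3 genes nearest in pattern to the highest and lowest of the 10 in WT MEFs. Other values of pathway genes were named after they were seen. *Uvssa*, *Primpol* and *Sprtn* were found under older names through a RefSeq table (GRCm38.p6). With 1 array per condition no test was run, and the number of arrays limits the precision.

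The alternatives comprised array-median scaling, quantiles, normexp (limma 3.58.1 in R 4.3.3, offset 50), other handling of dim probes and of several probes, the value table, and thresholds of 1.5-fold and 3-fold. The dimmer probe of *Xpa* and *Polk* was added after the values were seen. The steps were tried on simulated arrays with planted changes past 2-fold, a check of the code and not of the results. They were run in Python (3.11.15) using pandas (2.3.3), scipy (1.17.1), numpy (2.4.6) and matplotlib (3.10.9).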

Additional observations from a re-analysis of the deposited data

Results flagged for a closer look

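Of the other pathway genes, 6 moved at least 1.5-fold down with doxorubicin in WT and at least 1.5-fold up in p53-/- MEFs, and each has 1 array per condition, so the difference was not tested. The difference of the log2 ratios (WT minus p53-/-) was -2.75 for *Usp1*, -2.69 for *Pcna*, the sliding clamp, -2.65 for *Rpa2*, -2.47 for *Rfc4*, -1.97 for *Rfc5* and -1.63 for *Rpa3*.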

How the results depend on the processing

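Of 350 values of the 10 genes under the other settings, 3 crossed 2-fold and 5 changed sign, and 0 values past 2-fold changed sign. *Ddb2* and *Polk* in WT MEFs lost the call as given above, and *Rev3l* in p53-/- MEFs gained one at -1.20 with array-median scaling, which moved the median of all genes by doxorubicin to -0.27 in WT and -0.30 in p53-/- MEFs. Signs changed for *Ddb1* in WT (-0.17, array median), *Ercc5* in p53-/- (-0.28, array median, and -0.03, quantile) and the *Polh* difference (0.02 and 0.16). The dimmer probes of *Xpa* and *Polk* changed none of 10 calls. Among the 10 genes, a 3-fold threshold left 1 higher and 0 lower in WT, 0 lower in p53-/- and 0 lower in untreated p53-/- against WT MEFs. A 1.5-fold threshold gave 3 lower in WT, 2 higher and 2 lower in p53-/-, 1 higher in untreated and 2 higher in treated p53-/- against WT MEFs, and 2 above for the difference. Normexp left 0 lower in WT, and the array median gave 2 lower in p53-/- MEFs and medians of -0.45 in WT and -0.41 in p53-/- MEFs. Among the other pathway genes, higher in WT were 1 with the array median, 2 with normexp and 1 at 3-fold, and 9 were lower at 3-fold. For p53-/- MEFs 0 were higher with the array median, 15 at 1.5-fold and 0 at 3-fold, and 2 were lower with the mean of probes, 3 at 1.5-fold and 0 at 3-fold. In untreated p53-/- against WT MEFs 11 were higher at 1.5-fold and 0 at 3-fold, and 1 was lower at 1.5-fold. With doxorubicin 2 were lower in p53-/- MEFs with normexp and 1 at 3-fold, and for the difference 1 was above with normexp, 4 at 1.5-fold and 0 at 3-fold. The cause of these changes was not tested. Shares of all genes are given here for 2-fold under the main scaling alone, so the counts at other settings have none beside them. No paired analysis was possible because each condition has 1 array and the labels give no replicate numbers, and neither a slide block nor leaving out an array could be run with 1 slide and 1 array per condition. Dim probes limit *Ddb2*, *Polh* and the dimmer *Polk* probe.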

Other observations

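Neighbors of *Ercc5*, *Ercc1* and *Ddb2* were the nearest protein-coding genes of the RefSeq table on each side, among genes measured on all 4 arrays. *Bivm* and *Gulp1* beside *Ercc5* had WT log2 ratios of -0.80 and -0.20. *Fosb* and *Cd3eap* beside *Ercc1* had 1.64 and 0.53, and *Acp2* and *Pacsin3* beside *Ddb2* had 0.21 and -1.28. From the shortest to the longest gene, the order was *Ercc1*, *Xpa*, *Ddb1*, *Ddb2*, *Poli*, *Xpc*, *Polh*, *Ercc5*, *Polk* and *Rev3l*. Across these 10 genes, which share the 4 arrays and are not independent replicates, gene length and the log2 ratio with doxorubicin had a Spearman's rho of 0.04 in WT and -0.02 in p53-/- MEFs, beside -0.16 over 12296 genes in WT and -0.24 over 11980 genes in p53-/- MEFs.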
